A study of Mus musculus with 10 samples.

Results

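Of the 23462 genes that the probes of these arrays could be named for, 9 encode the core of the renin-angiotensin system and are described here across the hippocampus of mice with and without neuronal PGC-1α overexpression. They are Agt, Ren1, Ace, Atp6ap2, Agtr1a, Agtr1b, Agtr2, Mas1 and Lnpep. Every gene probe whose RefSeq accession belongs to one of these symbols was taken, which gave 11 of 56605 distinct probes. The group was selected on the Agtr1a values of this same comparison, which were already known to be higher on the arrays of nPGC-1α mice, so the Agtr1a values are a description without a test, and the other 8 genes were chosen by their place in the system. The question was whether the higher Agtr1a level extended to the other genes of the system.

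Total RNA of whole hippocampus was hybridised to 1-colour Agilent mouse arrays, 5 per group. Each array is treated below as 1 mouse, although the methods do not say whether RNA of several mice was pooled. PGC-1αf/f mice, the littermate controls, carry a PGC-1α transgene in the Rosa26 locus that is silenced by a floxed stop cassette, and they lack Cre. The nPGC-1α mice carry the same transgene together with Eno2-Cre, a Cre recombinase driven by the promoter of neuron-specific enolase, which removes the cassette in neurons and turns on PGC-1α and eGFP. Both groups are on a C57BL/6 background, are given by the labels as males of 12 weeks, and were sampled under basal conditions without surgery.

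The renin-angiotensin system makes small peptides from a single precursor. Renin cleaves angiotensinogen, the product of Agt, to angiotensin I, and angiotensin-converting enzyme, the product of Ace, trims this to angiotensin II, which acts on the AT1 receptor. The AT2 receptor, and Mas with its shorter peptide ligand, oppose signalling through AT1. In the brain, angiotensinogen is made mainly by astrocytes, Ace is strong in the choroid plexus and vessel walls, and the AT1 receptor is known for its part in drinking, blood pressure and vascular tone, while Mas is abundant in hippocampal neurons. Mice encode the AT1 receptor in a pair of genes, Agtr1a and Agtr1b, of which Agtr1a is the main form outside the adrenal and pituitary glands.

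A level below is the log2 processed signal of a probe minus the log2 of the 75th percentile of its array, so a level of 0 equals that percentile. Levels of different probes are not compared as amounts of transcript. Where levels are summed over probes, the brighter probes weigh most. The nPGC-1α arrays had higher detection limits: the scanner software marked 67.2% to 73.4% of their gene spots as well above background, against 74.5% to 81.5% in the control group, and the lowest signal so marked lay at levels of -6.62 to -5.75 against -7.51 to -6.56. Y-linked transcripts (Kdm5d, Uty, Ddx3y) were detected on 4 arrays (PGC-1αf/f 1 and nPGC-1α 1, 3 and 5) and not on the other 6, although the labels give every mouse as male. The scanner software marked 10.5% of the gene spots of PGC-1αf/f 1 and 11.6% of those of nPGC-1α 1 as outliers. On the remaining arrays this share ran from 0.19% to 4.75%. Replicates 1 to 4 of both groups shared a slide (slide 1), and replicate 5 of both groups lay on the other. On slide 1 the PGC-1αf/f arrays lay in row 1 and the nPGC-1α arrays in row 2, so group and row cannot be told apart there. The labels name the cell type as neuron, yet all 10 astrocyte, all 9 oligodendrocyte and 8 of 10 microglia markers listed were tested as above background, along with all 10 neuron markers. In such tissue, fewer cells of a type and less RNA per cell cannot be told apart.

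Ppargc1a, which encodes PGC-1α, did not separate the groups. Its brighter probe (A_51_P279038) gave 2.34, 2.19, 2.13, 2.19 and 2.15 on PGC-1αf/f arrays 1 to 5 and 2.29, 2.23, 2.06, 2.12 and 2.31 on nPGC-1α arrays 1 to 5. The levels overlapped, with means of 2.20 ± 0.08 and 2.20 ± 0.11 (SD, n = 5 each) and a limma adjusted p of 0.99. Whether this probe can hybridise to the transgene's transcript was not tested.

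Of the receptors for angiotensin II, Agtr1a was higher in every nPGC-1α mouse, Agtr2 overlapped between groups and Agtr1b lay at the detection limit. Agtr1a was read by 1 probe (A_52_P645862) that was well above background on all 10 arrays. Its level was -4.09, -3.95, -3.94, -4.23 and -4.27 on PGC-1αf/f arrays 1 to 5. On nPGC-1α arrays 1 to 5 it was -3.48, -3.52, -3.73, -3.35 and -3.35. Every nPGC-1α array lay above every PGC-1αf/f array, the means being -4.10 ± 0.15 and -3.49 ± 0.16 (SD, n = 5 each). Among the 34000 probes with a value on all 10 arrays, 0.709% were non-overlapping in the same direction. The Agtr1a difference, nPGC-1α minus PGC-1αf/f, was 0.61 on the log2 scale, or 1.53-fold. It was 0.53 on slide 1 alone, where group and row coincide, and 0.66 on the 6 arrays without Y-linked transcripts. On the 4 arrays with them it was 0.57, with PGC-1αf/f 1 as the only control array. Slide 2 held 1 array of each group and gives no error of its own. Whether the probe also reads Agtr1b, the close paralogue, was not tested.

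Agtr1b encodes the second AT1 receptor. Its first probe (A_55_P1975170) was detected, that is well above background, in 3 of 5 PGC-1αf/f and 2 of 5 nPGC-1α mice. The values were -6.70, -5.98, -5.85, -6.24 and -8.19 against -8.22, -6.11, -7.48, -6.84 and -6.46, and the groups overlapped widely, with an exact two-sided permutation p of 0.437 over 5 against 5 arrays. Its second probe (A_66_P137441) was detected in 4 PGC-1αf/f mice and 0 nPGC-1α mice. Values there were -8.33, -7.11, -7.34, -7.03 and -6.34 against -8.23, -7.62, -7.92, -7.36 and -8.66, with an exact two-sided permutation p of 0.103. The mean of the brighter group for that probe lay below the lowest detectable signal of the nPGC-1α arrays, so no fold is given. Neither probe passed the filter on dim probes, so Agtr1b was not part of the test across probes.

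Agtr2, the X-linked gene of the AT2 receptor, overlapped fully between groups. Its probe (A_55_P2913702) gave -4.80, -6.00, -5.71, -6.22 and -5.43 in the PGC-1αf/f group and -5.41, -5.61, -5.81, -5.75 and -5.36 in the nPGC-1α group, and nPGC-1α 3 was the array on which it was not well above background. The PGC-1αf/f values enclosed all 5 nPGC-1α values. The difference was 0.04 on the log2 scale (SE 0.23, limma adjusted p of 0.951), with a 95% interval of -0.47 to 0.56.

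**Figure D1:**
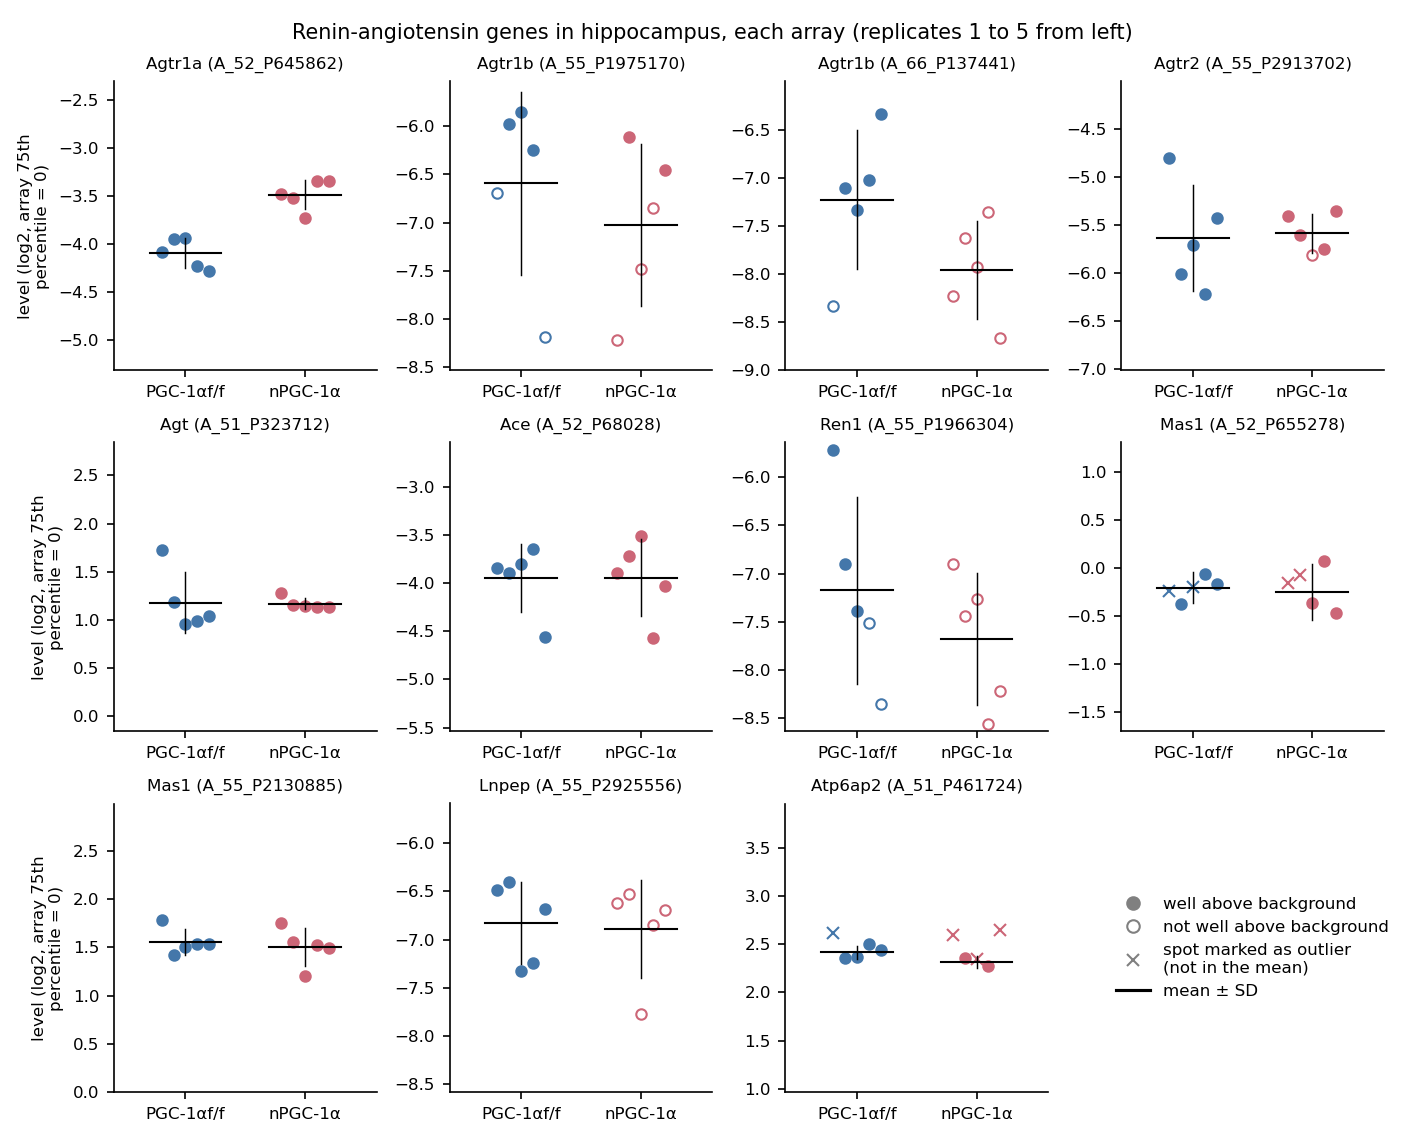
Level of each of the 11 renin-angiotensin probes (vertical axis, log2 with the 75th percentile of the array at 0) on each PGC-1αf/f (blue) and nPGC-1α (red) array, replicates 1 to 5 from left in each group; filled points are well above background, open points are not, crosses are spots marked as outliers, and lines give mean ± SD. The panels have axes of equal span placed at different levels, and Agtr1a is the panel in which the 5 nPGC-1α points all lie above the 5 PGC-1αf/f points.

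Agt, the precursor, and Ace, the converting enzyme, overlapped between groups, and Ren1 was hardly detected. Agt (A_51_P323712) was well above background on all 10 arrays. Its level was 1.72, 1.18, 0.96, 0.98 and 1.04 on PGC-1αf/f arrays 1 to 5 and 1.28, 1.16, 1.14, 1.14 and 1.13 on nPGC-1α arrays 1 to 5. Array 1 was the highest of each group, and the nPGC-1α values lay inside the PGC-1αf/f range. The means were 1.18 ± 0.32 and 1.17 ± 0.06 (SD, n = 5 each), a difference of -0.01 (SE 0.14, 95% interval -0.32 to 0.30, limma adjusted p of 0.984). Without PGC-1αf/f 1 it was 0.13.

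Ace (A_52_P68028) was also well above background on all 10 arrays. Its level was -3.84, -3.90, -3.80, -3.65 and -4.56 in the PGC-1αf/f group and -3.89, -3.72, -3.51, -4.57 and -4.03 in the nPGC-1α group. Each group had 1 low array, PGC-1αf/f 5 and nPGC-1α 4, and the other values overlapped. The difference was 0.00 (SE 0.21, 95% interval -0.47 to 0.48, limma adjusted p of 0.996). It was -0.15 without PGC-1αf/f 5, -0.10 without nPGC-1α 3 and 0.16 without nPGC-1α 4.

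Ren1 encodes renin, the enzyme that starts the cascade. Its probe (A_55_P1966304) was detected in 3 PGC-1αf/f mice and 0 nPGC-1α mice. The level was -5.71, -6.90, -7.39, -7.52 and -8.36 against -6.90, -7.44, -7.27, -8.56 and -8.22, and the groups overlapped, with an exact two-sided permutation p of 0.397 over 5 against 5 arrays. The PGC-1αf/f mean lay below the lowest detectable signal of the nPGC-1α arrays, so no fold is given, and the probe did not pass the filter. Atp6ap2, the X-linked gene of the (pro)renin receptor, a subunit of the vacuolar proton pump, was bright but had 4 outlier-marked spots. The remaining levels of A_51_P461724 were 2.36, 2.37, 2.50 and 2.44 on PGC-1αf/f arrays 2 to 5, and 2.36 and 2.27 on nPGC-1α arrays 2 and 4. That left too few nPGC-1α values for the test. With the marked spots included, the means were 2.46 ± 0.10 and 2.45 ± 0.17 (SD, n = 5 each), a difference of -0.01 with an exact permutation p of 0.913.

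The receptors of the shorter angiotensin peptides did not separate the groups either. Mas1, which encodes the Mas receptor, was well above background on all 10 arrays. Its brighter probe (A_55_P2130885) gave 1.78, 1.42, 1.51, 1.54 and 1.53 in the PGC-1αf/f group and 1.76, 1.56, 1.21, 1.52 and 1.49 in the nPGC-1α group. Array 1 was again the highest of each group, and the rest overlapped. The difference was -0.05 (SE 0.11, 95% interval -0.30 to 0.20, limma adjusted p of 0.881). A second Mas1 probe (A_52_P655278), with 3 unmarked values per group, also differed by -0.05 (SE 0.18, limma adjusted p of 0.932).

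Lnpep encodes the insulin-regulated aminopeptidase, which binds angiotensin IV. Its probe (A_55_P2925556) was detected in all 5 PGC-1αf/f mice and in 0 nPGC-1α mice, whose array detection limits were higher, and it was tested through the PGC-1αf/f group alone. The level was -6.49, -6.40, -7.33, -7.24 and -6.68 against -6.62, -6.53, -7.77, -6.85 and -6.69, and the groups overlapped. The difference of -0.06 (SE 0.26, 95% interval -0.64 to 0.52, limma adjusted p of 0.938) is between values at the detection limit, and no fold is given.

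Taking the 5 tested members other than Agtr1a (Agtr2, Agt, Ace, Mas1 and Lnpep), 0 passed a limma adjusted p of 0.05, where 0.00568% of the 17597 named genes tested did. At an unadjusted p under 0.05, 0 of the 5 were higher and 0 lower, against 3.18% and 5.03% of the named genes. Their differences were above 0 for 2 of 5, against 43.3% of the named genes, and their median was -0.01, against -0.02. Lnpep entered through the control group alone and was below detection in every nPGC-1α mouse, so it bears little on the nPGC-1α level, and the median of the other 4 was -0.00. Of these, Agtr2 also entered through the control group alone, being below detection on nPGC-1α 3. These members lay between -0.06 and 0.04, while Agtr1a stood at 0.61. With 5 arrays per group, the intervals leave room for differences of up to about 0.20 for Mas1, 0.30 for Agt, 0.48 for Ace and 0.56 for Agtr2 above 0 on the log2 scale. Whether any of these differences is smaller than that of Agtr1a was not tested.

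**Figure D2:**
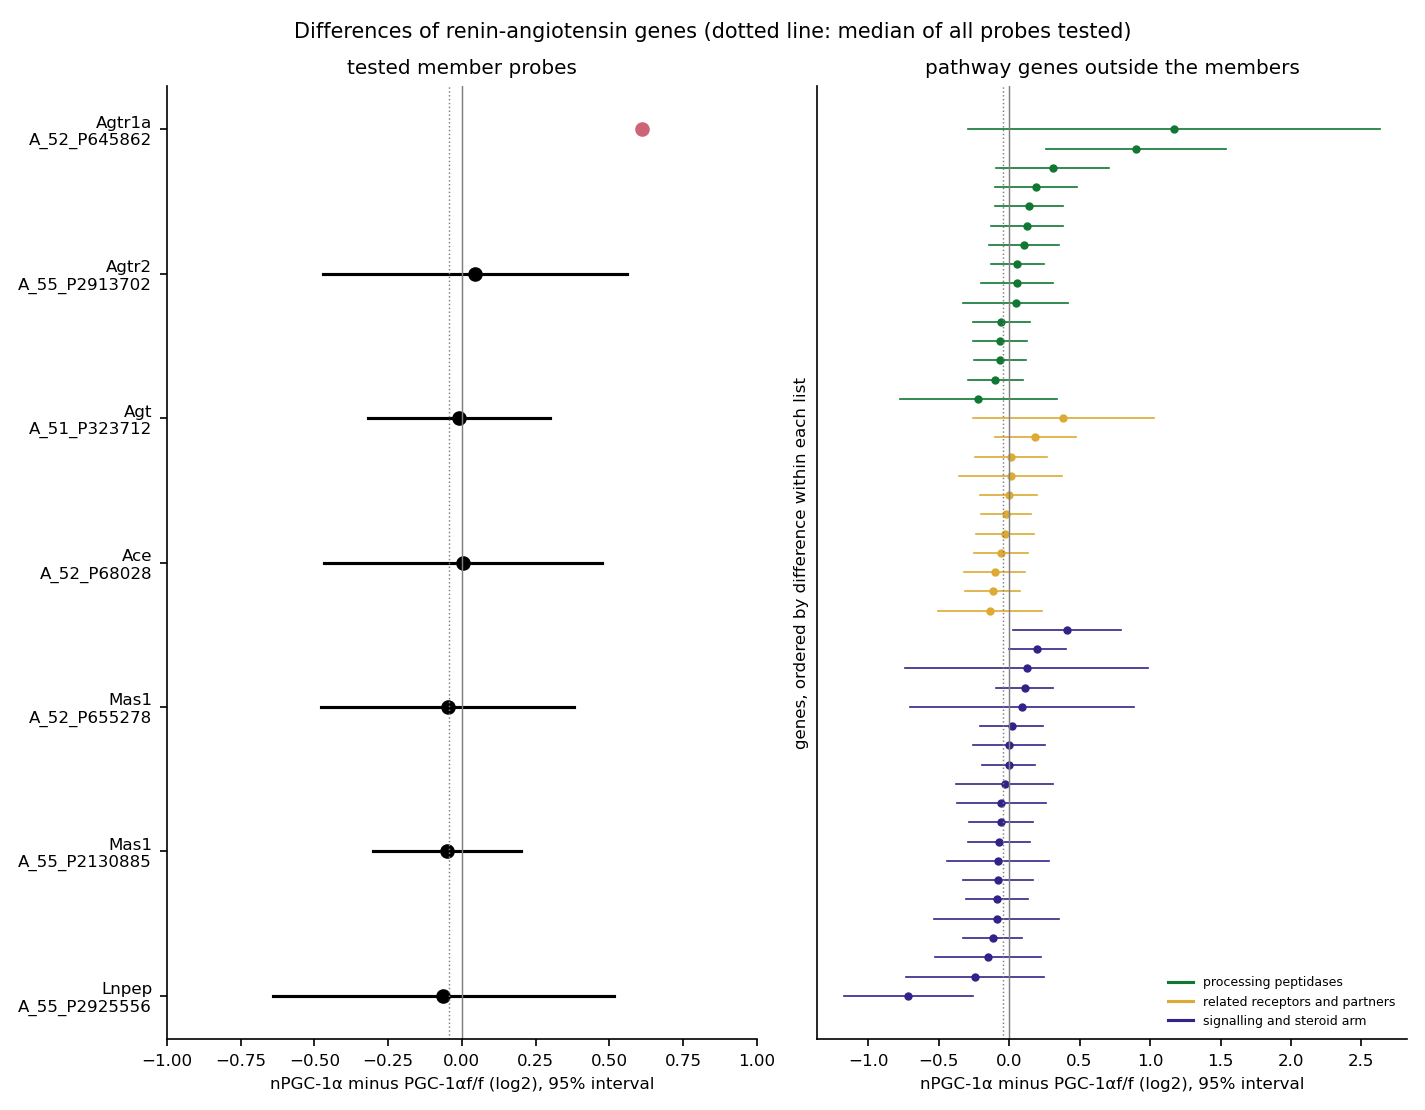
Difference nPGC-1α minus PGC-1αf/f (horizontal axis, log2) with its 95% interval for the 7 tested member probes (left) and the 46 tested pathway genes outside the members (right, 1 line per gene, ordered by difference within each list), coloured by list; the solid line is 0 and the dotted line the median of all 39142 probes tested (-0.04). Agtr1a at 0.61, drawn without an interval because the genes were selected on it, lies to the right of the other member probes, whose intervals all include 0.

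The 46 tested genes of 59 in 3 lists around the system gave no call past the adjusted threshold. The lowest limma adjusted p was 0.233, 2 genes were higher and 1 lower at an unadjusted p under 0.05, 20 were above 0, and their median difference was -0.01. Among peptidases that process angiotensins and kinins, 15 of 19 were tested, 10 were above 0, and their median was 0.06. The aminopeptidase genes Enpep and Anpep differed by 0.14 and 0.19. Ctsg, encoding the mast cell and neutrophil protease cathepsin G, had the highest value of the 46, 1.17, with an SE of 0.66 and a limma adjusted p of 0.512.

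Of the genes with an unadjusted p under 0.05, Mmel1 and Nr3c2 are described. Mmel1, a neprilysin-like membrane metallopeptidase, was read by a pair of probes. The brighter (A_51_P217517) gave -2.98, -2.72, -3.09, -3.12 and -4.33 in the PGC-1αf/f group and -2.24, -2.04, -1.98, -2.56 and -2.91 in the nPGC-1α group. PGC-1αf/f 5 was far below its group, and nPGC-1α 5 fell among the PGC-1αf/f values. The difference was 0.90 (SE 0.29, limma adjusted p of 0.268), and the second probe gave 0.94 (limma adjusted p of 0.296). Without PGC-1αf/f 5 the first was 0.63. Mmel1 thus did not pass the adjusted threshold.

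Nr3c2 encodes the mineralocorticoid receptor, the target of aldosterone. Its brighter probe (A_66_P132841) gave -3.98, -3.36, -2.81, -3.10 and -2.98 in the PGC-1αf/f group and -3.85, -3.86, -4.36, -4.01 and -3.73 in the nPGC-1α group. The nPGC-1α values lay low except against PGC-1αf/f 1. The difference was -0.71 (SE 0.21, limma adjusted p of 0.233). It was -0.87 on the 6 arrays without Y-linked transcripts, and -0.00 on the 4 arrays with them, where PGC-1αf/f 1 was the only control. A dimmer, untested probe (A_51_P377914), well above background on 4 arrays of each group, differed by 0.57 in the other direction. The probes of Nr3c2 thus disagreed in direction, the dimmer one lying near the detection limit. Among the 20 tested genes of AT1 receptor signalling and the steroid arm, 6 were above 0, with a median of -0.06. Among the 11 tested of 16 receptor partners, 4 were above 0, with a median of -0.03, and 0 had an unadjusted p under 0.05.

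Markers of the cells that carry these genes were set beside the members. A score per array is the median, over a marker list, of each gene's log2 deviation from its mean over the arrays. Agtr1a is known from pericytes and vascular smooth muscle, and of the 10 markers of these cells 9 were tested (all but Rgs5). All 9 differences were above 0, against 43.3% of the named genes, with a median of 0.19. At an unadjusted p under 0.05, 2 were higher (Kcnj8 by 0.22 and Abcc9 by 0.34, limma adjusted p of 0.418 and 0.370), against 3.18%, and 0 passed the adjusted threshold. Their scores were -0.21, -0.14, -0.03, 0.01 and -0.24 in the PGC-1αf/f group and 0.02, 0.33, 0.03, 0.25 and -0.03 in the nPGC-1α group, which overlap. The summed linear level of the 7 of these genes with all values, without Vtn and Acta2, ran from 5.52 to 6.84 against 6.23 to 8.08. Mean levels of the 9 ran from -3.85 for Anpep to 2.33 for Vtn in the control mice and from -3.66 for Anpep to 2.63 for Acta2 in the nPGC-1α mice. Within groups, the array with the highest Agtr1a level was not the one with the highest score. PGC-1αf/f 5 was the lowest of its group for both, at -4.27 and -0.24. In the nPGC-1α group, arrays 4 and 5 both had an Agtr1a level of -3.35, with scores of 0.25 and -0.03. The score of array 5 was the lowest of that group. The part of these cells in the Agtr1a difference was not tested. Oligodendrocyte markers had a larger median difference, 0.32, with 7 of 9 above 0 and 0 at an unadjusted p under 0.05. Their scores were -0.45, 0.01, -0.07, 0.06 and -0.17 in the control mice and -0.41, -0.09, 0.41, 0.37 and 0.34 in the nPGC-1α mice, with summed levels of 18.1 to 22.9 and 18.4 to 24.8. Their part in the Agtr1a difference was not tested either. Endothelial scores ran from -0.11 to 0.04 against -0.09 to 0.13, with summed levels of 16.9 to 19.9 and 17.3 to 20.2.

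For Agt, astrocyte scores were 0.32, 0.07, -0.13, 0.11 and -0.04 in the PGC-1αf/f group and 0.05, -0.05, -0.10, -0.06 and -0.05 in the nPGC-1α group. PGC-1αf/f 1 was the highest array for both Agt and the score, and nPGC-1α 1 was the highest of its group for both. All 10 astrocyte markers were tested, 2 were above 0, 0 passed an unadjusted p of 0.05, and their summed levels were 29.7 to 39.4 against 30.0 to 32.8. For Ace, choroid plexus scores were -0.67, 0.52, -0.21, 1.33 and -0.81 in the PGC-1αf/f group and -0.55, -0.52, 1.98, -0.36 and -0.80 in the nPGC-1α group. The arrays with the most choroid plexus signal, PGC-1αf/f 4 and nPGC-1α 3, were also the highest for Ace in their groups, and PGC-1αf/f 5 was the lowest of its group for both, while nPGC-1α 4, the lowest of its group for Ace, was not the lowest in score. Of 12 choroid plexus markers 10 were tested, 0 passed an unadjusted p of 0.05, and their summed levels were 1.96 to 7.31 against 2.22 to 12.6. The part of the choroid plexus in the Ace levels was not tested.

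**Figure D3:**
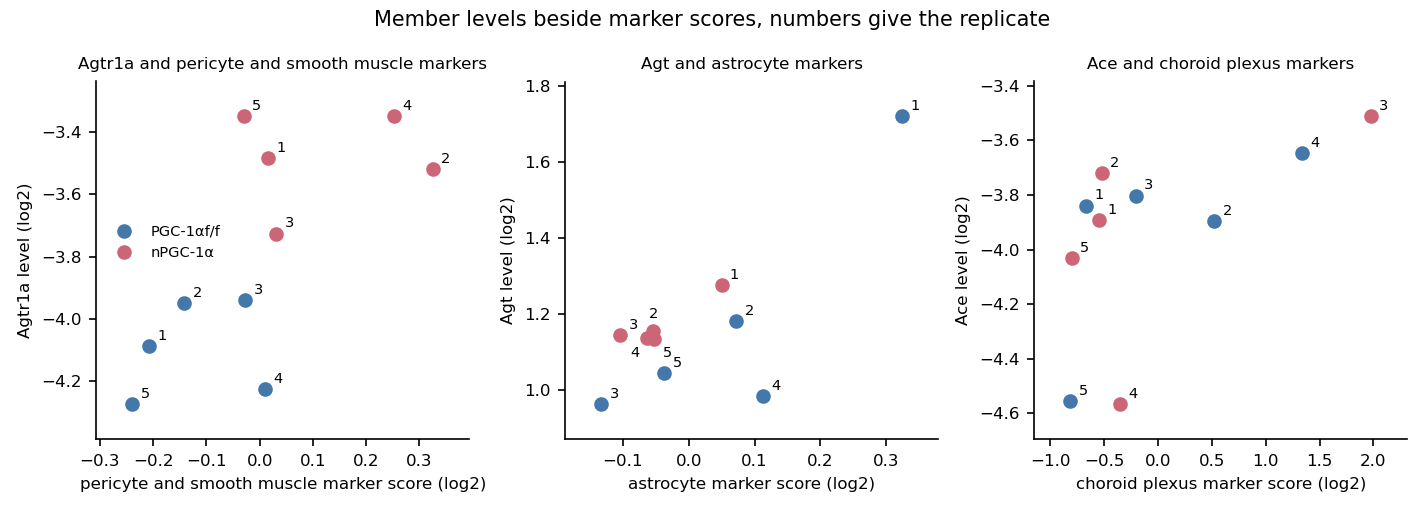
Level of Agtr1a, Agt and Ace on each array (vertical axis, log2) beside the score of pericyte and smooth muscle, astrocyte and choroid plexus markers (horizontal axis, log2), for PGC-1αf/f (blue) and nPGC-1α (red) with the replicate number at each point. The groups separate on the Agtr1a axis and overlap on all 3 score axes, and PGC-1αf/f 1 is the highest point for both Agt and the astrocyte score.

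Whether other members followed Agtr1a from mouse to mouse was asked with the group means removed, over 10 arrays and 5 relations. Pearson r with Agtr1a was 0.43 for Lnpep, 0.25 for Mas1, 0.09 for Agtr2, 0.07 for Agt and -0.23 for Ace. Exact permutation within groups gave p of 0.245 to 0.929, or 0.891 to 0.929 after Benjamini-Hochberg adjustment. Spearman rho was between -0.41 for Ace and 0.25 for Lnpep, with exact permutation p of 0.250 to 1 and an adjusted p of 1 for each. Without the 2 arrays farthest from the median of Agtr1a, r lay between -0.57 for Ace and 0.09 for Lnpep. This result turned on the scaling. With the array median as scale, 4 of the 5 passed an adjusted p of 0.05 (r of 0.76 for Agtr2, 0.72 for Agt, 0.81 for Mas1 and 0.73 for Lnpep), and with quantile normalisation 3 did (0.71 for Agtr2, 0.65 for Agt and 0.84 for Mas1). By Spearman rho, 0 of 5 passed under either scaling, the lowest adjusted p by exact permutation being 0.073 and 0.055. With normexp and quantile normalisation 4 passed by r and 3 by rho. Without the 2 farthest arrays, r under the array median and quantile scalings was 0.53 and 0.49 for Agtr2, 0.52 and 0.59 for Mas1, 0.54 and 0.48 for Lnpep, and 0.33 and 0.12 for Agt. The Lnpep values of the nPGC-1α mice were below detection, and as first scaled its r was -0.05 without nPGC-1α 3.

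Among 13584 named genes well above background on all 10 arrays, those whose deviations were most like those of Agtr1a were Gm21083 (r of 0.93), Xpo4 (0.91), Nts (0.89), 4930563F08Rik (0.89) and Gm1141 (0.89), each over 10 arrays. Over all 13584 genes r ran from -0.92 to 0.93 with a median of -0.01, so values of this size are the ends of a wide distribution and no p is given. Xpo4 encodes a nuclear export receptor and Nts the peptide neurotensin. Agt, Ace and Mas1 are among these genes, at the r values given above.

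PGC-1α has no DNA-binding domain and acts through partners such as nuclear receptors, so the start regions of the members were searched for the letters these partners bind. RefSeq sequences of GRCm38.p6, from 250 bases before to 50 after the start, were at hand for 9 promoters of 8 members, without Agtr1a. On both strands, the nuclear receptor core AGGTCA was found in 1 of the 9, a promoter of Ace, against 16.3% of all 32851 promoters of this length. The longer TCAAGGTCA of oestrogen-related receptors, which contains the core, was found in 0 of 9 (0.423% of all). The stretch around this single match is chr11:105975112-105975171 on the plus strand. AGGTCA is in capitals and begins 50 bases before the start listed for that promoter.
Ace: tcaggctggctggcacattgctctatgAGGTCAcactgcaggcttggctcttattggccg
A match of letters is a description and not a site. The 9 promoters belong to 8 members, so a member can have more than 1 start. Whether the Ace start shown is used in hippocampus was not tested, so the match is not set beside the Ace difference.

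The Agtr1a difference was 0.51 to 0.71 under the 27 alternatives, and between 0.57 and 0.67 when each array was left out in turn. The genes were selected on this value, so the range is a description and no support. The groups did not overlap for Agtr1a, so leaving out an array could not reverse the direction. Some alternatives, among them other filters and the slide or replicate block, could not change its size. The other members stayed near 0: with 1 exception named next, Agt ranged from -0.13 to 0.13, Ace from -0.17 to 0.16, Agtr2 from -0.16 to 0.25, Mas1 from -0.11 to 0.04 and Lnpep from -0.19 to 0.26, with signs that changed from setting to setting. The exception was the fit of the 4 arrays with Y-linked transcripts, in which PGC-1αf/f 1, the array with the highest Agt, was the only control. There Agt differed by -0.54 and Agtr2 by -0.73, both with an unadjusted p under 0.05, and Lnpep by -0.54, Mas1 by -0.30 and Ace by 0.03. None of the 5 passed the adjusted threshold under any alternative in which it was tested.

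**Figure D4:**
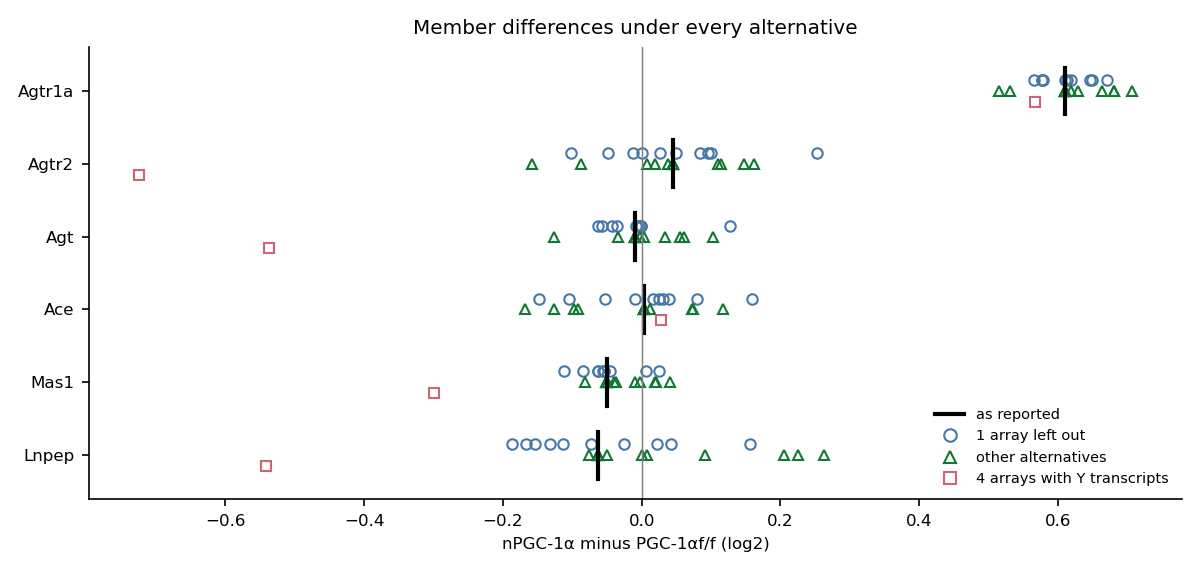
Difference nPGC-1α minus PGC-1αf/f (horizontal axis, log2) of the 6 tested members as reported (black bar), with each array left out (circles), under other alternatives (triangles) and on the 4 arrays with Y-linked transcripts (squares). Agtr1a, on which the genes were selected, lies at 0.51 to 0.71. The other members scatter around 0, apart from the squares of Agtr2, Agt, Lnpep and Mas1, which rest on the PGC-1αf/f 1 array as the only control.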

How the data were processed

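The deposited scanner files (Feature Extraction 11.5.1.1 per the file headers, another version in the methods) hold a fluorescence intensity per spot, background-subtracted by the authors' software and not normalised between arrays, with median pixel intensities of spot and background. A second deposited table holds the authors' log2 values for 41606 probes, made with GeneSpring per the methods, and was used as an alternative. How those probes were selected is not given in the sources used here. Here control and outlier-marked spots were left out, log2 processed intensity was centred on the 75th percentile of its array, and spots of a probe were averaged. A probe was tested if, in either group, it was well above background on every array that had an unmarked spot for it. Both groups also had to hold at least 3 values, which kept 39142. RefSeq symbols (GRCm38.p6) named 33767 of 56605 probes (59.7%). The arrays were designed on another build, so no probe coordinates are given.

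Groups and replicates came from the labels. Differences were tested with limma 3.58.1 (R 4.3.3, lmFit and eBayes, two-sided, no covariates), adjusted by Benjamini-Hochberg over all 39142 probes. The brightest tested probe stood for a gene. Single probes outside the test were compared by exact permutation, whose smallest p is 0.00794 for 5 against 5 arrays. A probe without a detected spot in a group has a bound only, taken from the lowest signal well above background on each array. On simulated data for this comparison (39142 probes, 200 changed) the test recovered 67.5% of log2 changes of 1 and 94.5% of changes of 2. The simulated noise was independent between values, without missing spots, detection limits or shifts of whole arrays. Recovery on the real arrays may thus be lower, and smaller changes were not simulated. The number of arrays limits the precision.

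The members, the pathway and marker lists and the tests were chosen with earlier results of these data known. The text names all 9 members with every probe, pathway genes past an adjusted p of 0.05 or up to 3 in each direction at an unadjusted p under 0.05, the 5 genes most like Agtr1a, and markers. A pathway gene that this rule names is not reported here. Values of Enpep, Anpep and Ctsg, outside the rule, were added after they were seen. Alternatives covered scaling and background correction (normexp used median pixel intensities), the authors' values, other filters, gene averages, slide, replicate or Y-transcript class as a block or alone, a Mann-Whitney test, and leaving out each array. Tables were handled in Python 3.11.15 with pandas 2.3.3.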

Additional observations from a re-analysis of the deposited data

Results flagged for a closer look

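Of 19 groups of member values checked for a sample far from the rest, 4 held one, where chance gives about 1 in 20 independent groups. These groups were read on the same 10 arrays and are not independent, so the count is a description and not a test. Agt stood at 1.72 on PGC-1αf/f 1, with the others of that group at 0.96 to 1.18, and at 1.28 on nPGC-1α 1, with the others at 1.13 to 1.16. Both arrays also had the highest astrocyte score of their group, and both had Y-linked transcripts. They also had the largest shares of outlier-marked gene spots, 10.5% and 11.6%. Y-linked transcripts were also found on nPGC-1α 3 and 5, where Agt stood at 1.14 and 1.13. Whether any of these bears on the Agt level was not tested. Ace stood at -4.56 on PGC-1αf/f 5, with the others at -3.90 to -3.65. Lnpep stood at -7.77 on nPGC-1α 3, with the others at -6.85 to -6.53, and no array of that group detected the probe above background.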

How the results depend on the processing

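Agtr1a was given no test. No other member and no pathway gene passed the adjusted threshold under any alternative with more than 1 control array. In those alternatives, pathway genes at an unadjusted p under 0.05 numbered 2 to 6 (3 as reported). The median over the 5 other tested members was -0.01 and -0.06 to 0.03 with an array left out. It was -0.54 on the arrays with Y-linked transcripts alone, where the lone PGC-1αf/f array was assumed to vary like the others. By Pearson r with Agtr1a across arrays, members past the adjusted threshold numbered 4 with the array median as scale and 3 with quantile normalisation. They numbered 4 with normexp and quantile normalisation, against 0 as reported and 0 with each array left out. Lnpep, below detection in every nPGC-1α mouse, was among the 4 under both scalings that gave 4. By Spearman rho the counts under these 3 scalings were 0, 0 and 3, against 0 as reported. This relation was not recomputed under blocks, filters or gene averages, nor on the arrays with Y-linked transcripts, which are too few. Over all probes, 1 passed the adjusted threshold (lower). The count was 0 with the slide, the replicate number or the Y-transcript class as a block, with a common floor, with normexp and quantile normalisation, with the Mann-Whitney test and with probes well above background on all 10 arrays. It was 4 with the array median as scale, 4 on the arrays with and 2 on the arrays without Y-linked transcripts. Without a filter on dim probes it was 4619 (3871 higher and 748 lower). With an array left out it ran from 0 (without PGC-1αf/f 1, 2 or 3, or nPGC-1α 4 or 5) to 3 (without nPGC-1α 2 or 3). Of probes at an unadjusted p under 0.05, 71.5% were lower as reported, 46.8% with the array median, 41.5% with quantile normalisation, 38.4% with normexp and 36.8% without the filter. The causes were not tested. Deviations of same-numbered arrays correlated at 0.08 to 0.36, below 0.1 for replicate 2. Arrays of different numbers were not compared in this way, so whether the replicate numbers pair the arrays was not tested. With the replicate block none of the 5 passed. Their differences could not change under this block, because each replicate number held 1 array of each group. Depth of signal limits Agtr1b, Ren1 and Lnpep, which lay at the detection limit of the nPGC-1α arrays. It also limits Agtr2, which was below that limit on nPGC-1α 3.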
